A study of Mus musculus with 2 samples.

Results

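The Ikaros family of zinc-finger transcription factors has 5 genes in the mouse, Ikzf1 (Ikaros), Ikzf2 (Helios), Ikzf3 (Aiolos), Ikzf4 (Eos) and Ikzf5 (Pegasus), taken by name from 21938 protein-coding genes of GENCODE M21. Open chromatin around them was read from DNase-seq of the thymus, an assay in which the enzyme DNase I cuts accessible DNA in nuclei. The window of each gene was its body plus 50 kb on each side (mm10, GRCm38), and a peak or footprint was counted where its midpoint lay inside. A peak is a region cut more than its surroundings, and a footprint is a short stretch within accessible DNA that was protected from the enzyme. The windows covered 0.862 Mb and held 173 of the 132737 peaks and 595 of the 375374 footprints of replicate 1, and 74 of the 69798 peaks and 255 of the 210014 footprints of replicate 2.

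Both samples were thymus tissue of female B6CASTF1/J mice, hybrids that carry 1 C57BL/6J and 1 CAST/EiJ set of chromosomes, at 10 days of age. The labels number the females separately as biological replicates 1 and 2 but give both the same donor identifier. There was 1 group and no control, so each value is given for both replicates and no test between groups was made. How well reads of the CAST/EiJ chromosomes align to the C57BL/6J reference was not measured.

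Ikaros proteins bind DNA through zinc fingers near one end and pair with each other through zinc fingers at the other end. They recruit the chromatin remodelling and deacetylase complex NuRD and other corepressors to the genes they bind. Ikaros and Aiolos are needed for normal lymphocyte development, Helios and Eos are known from regulatory T cells, and Pegasus is the most divergent member and is widely expressed. The thymus is the organ in which lymphoid progenitors become T cells, and thymocytes in it rearrange their antigen receptor genes.

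The libraries differed in the number of peaks, and heights are the authors' deposited signal, with a library median of 0.625 in replicate 1 and 0.828 in replicate 2. Read numbers are not given in the sources used here, so depth is unknown. The tissue label was checked with promoter peaks, that is peaks within 500 bp of an annotated start. All 8 thymocyte markers (such as Lck, the highest, and Cd4, the lowest) had one in both replicates. It was seen in 1 of 4 B cell markers (Pax5), 2 of 4 myeloid, 1 of 3 thymic epithelial (Epcam), 1 of 3 erythroid (Gata1), both mesenchymal and 0 of 3 hepatocyte markers, against 57.2% of all protein-coding genes. Cd79a (B cells), Foxn1 and Psmb11 (thymic epithelium) and Klf1 (erythroid cells) had none in either replicate. The tissue was not sorted, and a low peak can come from few cells or from many cells with little cutting, which cannot be told apart here.

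Sequences of 7 elements that the results turn on are shown 5′ to 3′ on the strand of the member gene, read from GRCm38.p6, with capitals where footprints of both replicates covered the base. The Ikzf1 element lies in an intron at chr11:11742841-11743020 (plus strand). The Ikzf2 element lies upstream of the gene at chr1:69689101-69689280 (minus strand). For Ikzf3, the intronic element lies at chr11:98527161-98527400 and the element downstream of the gene at chr11:98457801-98457930 (both minus strand). For Ikzf4, the intronic element lies at chr10:128637081-128637300 and the downstream element at chr10:128612761-128612920 (both minus strand). The Ikzf5 sequence, chr7:131410522-131410600 (minus strand), is the whole stretch between the first start of Ikzf5 and the start of its divergent neighbour Acadsb. Each is the stretch shared by the highest peaks of both replicates at a shared intronic or flanking element of that gene (at the promoter for Ikzf5), without bases of annotated exons. Elements were chosen by the mean over both replicates of the height as a multiple of the library median. In replicate 2 alone another intronic element was the highest for Ikzf1 and for Ikzf3. For Ikzf4 the highest flanking element in replicate 2 lay upstream of the gene (chr10:128668881-128669100).
Ikzf1 intronic element: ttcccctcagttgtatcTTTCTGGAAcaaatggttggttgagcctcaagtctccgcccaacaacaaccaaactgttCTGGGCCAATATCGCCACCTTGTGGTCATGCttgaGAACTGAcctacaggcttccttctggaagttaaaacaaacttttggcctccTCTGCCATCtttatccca
Ikzf2 upstream element: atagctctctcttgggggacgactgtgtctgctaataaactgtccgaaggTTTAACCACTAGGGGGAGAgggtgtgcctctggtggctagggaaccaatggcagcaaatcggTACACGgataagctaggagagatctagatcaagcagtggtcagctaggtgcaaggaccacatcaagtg
Ikzf3 intronic element: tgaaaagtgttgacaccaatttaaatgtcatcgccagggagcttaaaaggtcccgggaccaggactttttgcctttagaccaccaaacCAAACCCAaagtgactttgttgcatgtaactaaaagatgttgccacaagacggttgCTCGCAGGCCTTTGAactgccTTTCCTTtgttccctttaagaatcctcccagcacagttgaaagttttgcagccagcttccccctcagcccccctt
Ikzf3 downstream element: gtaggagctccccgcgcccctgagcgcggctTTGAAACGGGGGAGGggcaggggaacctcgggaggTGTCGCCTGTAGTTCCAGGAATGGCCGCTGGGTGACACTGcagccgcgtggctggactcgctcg
Ikzf4 intronic element: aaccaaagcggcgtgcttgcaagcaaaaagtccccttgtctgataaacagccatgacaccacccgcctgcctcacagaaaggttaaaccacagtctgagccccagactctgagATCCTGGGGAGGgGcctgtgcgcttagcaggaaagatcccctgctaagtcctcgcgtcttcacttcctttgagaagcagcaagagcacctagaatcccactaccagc
Ikzf4 downstream element: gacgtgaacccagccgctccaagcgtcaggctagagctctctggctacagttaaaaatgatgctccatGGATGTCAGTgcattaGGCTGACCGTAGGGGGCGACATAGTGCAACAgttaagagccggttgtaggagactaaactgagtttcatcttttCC
Ikzf5 promoter: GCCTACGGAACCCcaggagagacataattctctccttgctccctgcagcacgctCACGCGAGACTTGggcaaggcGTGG

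In these sequences, 56 of 180 bases of the Ikzf1 intronic element and 55 of 130 bases of the Ikzf3 downstream element lay in footprints of both replicates. The Ikzf3 downstream element was the richest in G and C, at 69.2%, with 12 CG dinucleotides. Of the consensus sequences searched (described with the motif counts), a RUNX match lay wholly in capitals in the Ikzf1 intronic element. A TCF match did so in the Ikzf3 intronic element and a CTCF match in the Ikzf4 downstream element. The RUNX match took up only part of a longer stretch in capitals, and which factor covered that stretch was not tested. Each factor was searched as a single exact sequence. Variant sites, of CTCF for example, were therefore not counted in any element, the stretches in capitals of Ikzf1 and Ikzf2 included. The Ikzf4 intronic element held 1 match each for ETS, RUNX and TCF, none of them wholly in capitals. The stretch between Ikzf5 and Acadsb held no match to the 8 consensus sequences, although 30 of its 79 bases were in footprints of both replicates.

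All 5 members had a promoter peak in both replicates. Ikzf5 had by far the highest, a peak that also covered the start of its neighbour Acadsb. Ikzf1 and Ikzf3 had middling ones, and Ikzf2 and Ikzf4 had low ones. The Ikzf5 peak (chr7:131410481-131410700) had a height of 11.7 in replicate 1 and 13.8 in replicate 2, 17.7 ± 1.37 times the library median (SD, n = 2). For Ikzf1 the heights were 4.36 and 4.0 (5.90 ± 1.52 times the median), and for Ikzf3 they were 3.97 and 3.08 (5.04 ± 1.86 times). For Ikzf2 they were 2.23 and 1.48 (2.68 ± 1.25 times), and for Ikzf4 they were 1.15 and 0.823 (1.42 ± 0.601 times). The order was the same in each replicate taken alone.

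Ikzf5 stood apart from the other 4 genes in both replicates, with no overlap. As multiples of the median, Ikzf1 and Ikzf3 overlapped between replicates, as did Ikzf2 and Ikzf4. As deposited heights, neither pair overlapped, and the higher gene of each pair was the same in both replicates. The gap between Ikzf3 and Ikzf2 was narrow, with 3.72 as the lower value of Ikzf3 and 3.56 as the higher one of Ikzf2. Among the promoter peaks of all protein-coding genes that had one, the Ikzf5 peak was at percentile 92.9 and 94.6, Ikzf1 at 50.6 and 49.2, Ikzf3 at 46.8 and 40.3, Ikzf2 at 30.9 and 22.3, and Ikzf4 at 20.2 and 12.4. These percentiles did not overlap between any of the members. Over all 12547 genes with a promoter peak in both replicates the median was 6.45 times the library median. Only Ikzf5, of the 5 members, lay above that value.

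Alternative starts were then compared. The annotated starts of the 5 genes, joined where they lay within 500 bp of each other, formed 13 start clusters, numbered here from the 5′ end of each gene. Of these, 11 had a peak within 500 bp in replicate 1 and 8 in replicate 2, and all 8 had one in both. Over all start clusters of protein-coding genes the shares were 35.3% in replicate 1 and 30.2% in replicate 2. Starts of 1 gene can lie near the same peak, and several of the Ikzf2 clusters did.

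**Figure D1:**
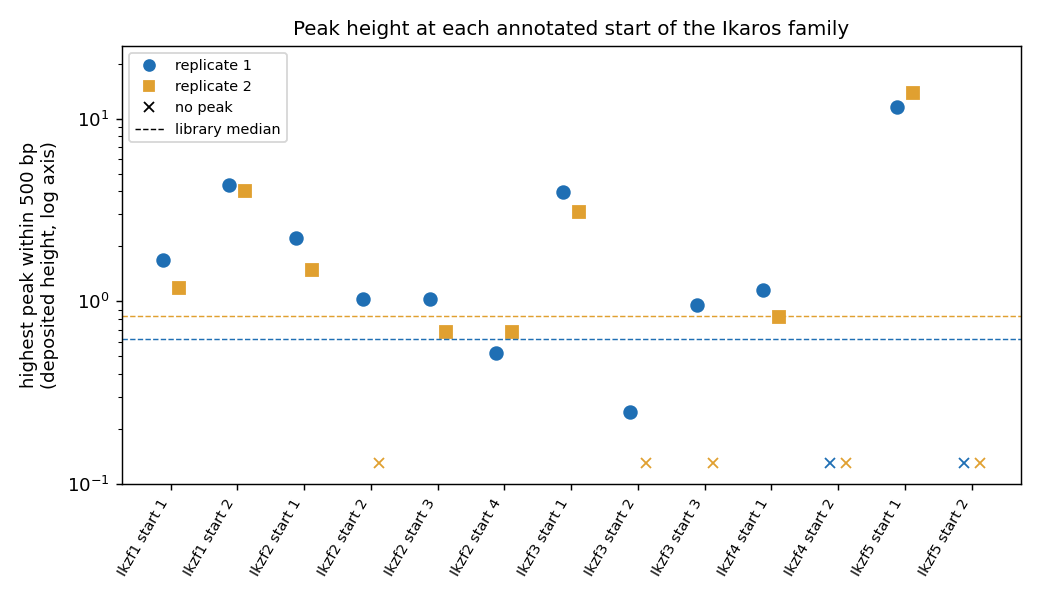
Height of the highest peak within 500 bp of each of the 13 start clusters (log axis, deposited height) in replicate 1 (circles) and replicate 2 (squares), with crosses where no peak was found and dashed lines at the library medians of 0.625 and 0.828. Ikzf5 start 1 is the highest in both replicates, at 11.7 and 13.8, and Ikzf4 start 2 and Ikzf5 start 2 have no peak in either.

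Ikzf1 (ENSMUSG00000018654.17, chr11:11685003-11772926, plus strand) had its main promoter peak at the second start cluster. That peak (chr11:11686021-11686280) lay inside the longest GENCODE first exon there (chr11:11685925-11686468) and spanned the further starts at 11686213 and 11686229, with 5 footprints in each replicate, 3 of the replicate 1 footprints being overlapped by replicate 2 footprints. Its sequence was 70.4% G and C. At the first cluster, 1 position at 11685003, the highest peak had a height of 1.69 in replicate 1 and 1.18 in replicate 2, from adjoining but separate regions. Gm11999, a GENCODE gene that is not protein-coding, starts within 500 bp of the replicate 2 peak there. Both Ikzf1 clusters were thus marked in both replicates, and the second was the higher in each.

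RefSeq lists a further curated Ikzf1 start at 11690177, which lies in an intron by the GENCODE annotation, 5.12 kb from the first GENCODE start and 3.68 kb from the nearest. It lay in a region (chr11:11689981-11690900) with a height of 2.66 in replicate 1 and 1.21 in replicate 2. The region held 17 footprints in replicate 1, the most of any element shared between the replicates, and 6 in replicate 2. It was classed as intronic, since the starts counted were those of GENCODE. This RefSeq comparison was added after the peaks had been seen. Unlike the main promoter, the region was poor in CG dinucleotides, with an observed-over-expected ratio of 0.230 against 0.931.

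Ikzf2 (ENSMUSG00000025997.13, chr1:69531214-69687245, minus strand) had 4 start clusters within its first 3.09 kb. At the first, the heights were 2.23 and 1.48. The next, at 69685821 to 69685886, had a peak of 1.04 in replicate 1 and none in replicate 2. The third lay near that peak in replicate 1 and near one of 0.678 in replicate 2. The last had 0.521 and 0.678, below the library median in both. Only the first of the 4 was therefore marked above the median in both replicates.

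Ikzf3 (ENSMUSG00000018168.8, chr11:98464902-98546031, minus strand) had 1 promoter peak in both replicates, at the 5′ end (chr11:98545741-98546140), with 8 and 6 footprints. Its 2 internal start clusters, at 98489020 and 98477403, had peaks in replicate 1 alone, with heights of 0.249 and 0.956. Ikzf4 (ENSMUSG00000002578.17, chr10:128630843-128645991, minus strand) had its low promoter peak at the first cluster (128645790 to 128645991). The peak held 7 footprints in replicate 1 and 1 in replicate 2, none of them overlapping. Gm26876, a GENCODE gene that is not protein-coding, starts within 500 bp of this peak. The second Ikzf4 cluster, at 128644648, had no peak in either replicate. RefSeq predicts further Ikzf4 starts 23.4 kb upstream of the first GENCODE start, and the region chr10:128668881-128669100 near them had heights of 1.37 and 1.51, higher than the annotated promoter in both replicates. A GENCODE gene of another kind, Gm49782, also starts there.

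Ikzf5 (ENSMUSG00000040167.16, chr7:131388652-131410521, minus strand) shares its promoter peak with Acadsb, which encodes an acyl-CoA dehydrogenase and starts in the opposite direction at 131410601. The peak covered both starts, so its height cannot be assigned to either gene. It held 6 footprints in each replicate, 5 of the replicate 1 footprints being overlapped by replicate 2 footprints. The internal start at 131393657 had no peak in either.

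Peak numbers differed between members and between replicates. Ikzf3 had 75 peaks in replicate 1 and 20 in replicate 2, or 4.14 and 1.10 per 10 kb of its window. Ikzf1 had 53 and 26 (2.82 and 1.38 per 10 kb). Ikzf4, with the smallest window, had 19 and 16 peaks (1.65 and 1.39 per 10 kb), a mean of 17.5 that was 9 with a flank of 25 kb. The density was thus highest at Ikzf3 in replicate 1, but in replicate 2 Ikzf3 was below both Ikzf1 and Ikzf4. Ikzf2 had 16 and 8 (0.625 and 0.312) and Ikzf5 had 10 and 4 (0.821 and 0.328). The medians over all protein-coding genes, counted in the same way, were 0.856 and 0.484 per 10 kb. Ikzf1, Ikzf3 and Ikzf4 lay above both medians and Ikzf2 and Ikzf5 below both. Among all protein-coding genes, Ikzf3 ranked at percentile 99.4 in replicate 1 but 81.2 in replicate 2, whereas Ikzf1 ranked at 96.1 and 88.7 and Ikzf4 at 80.9 and 88.9.

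**Figure D2:**
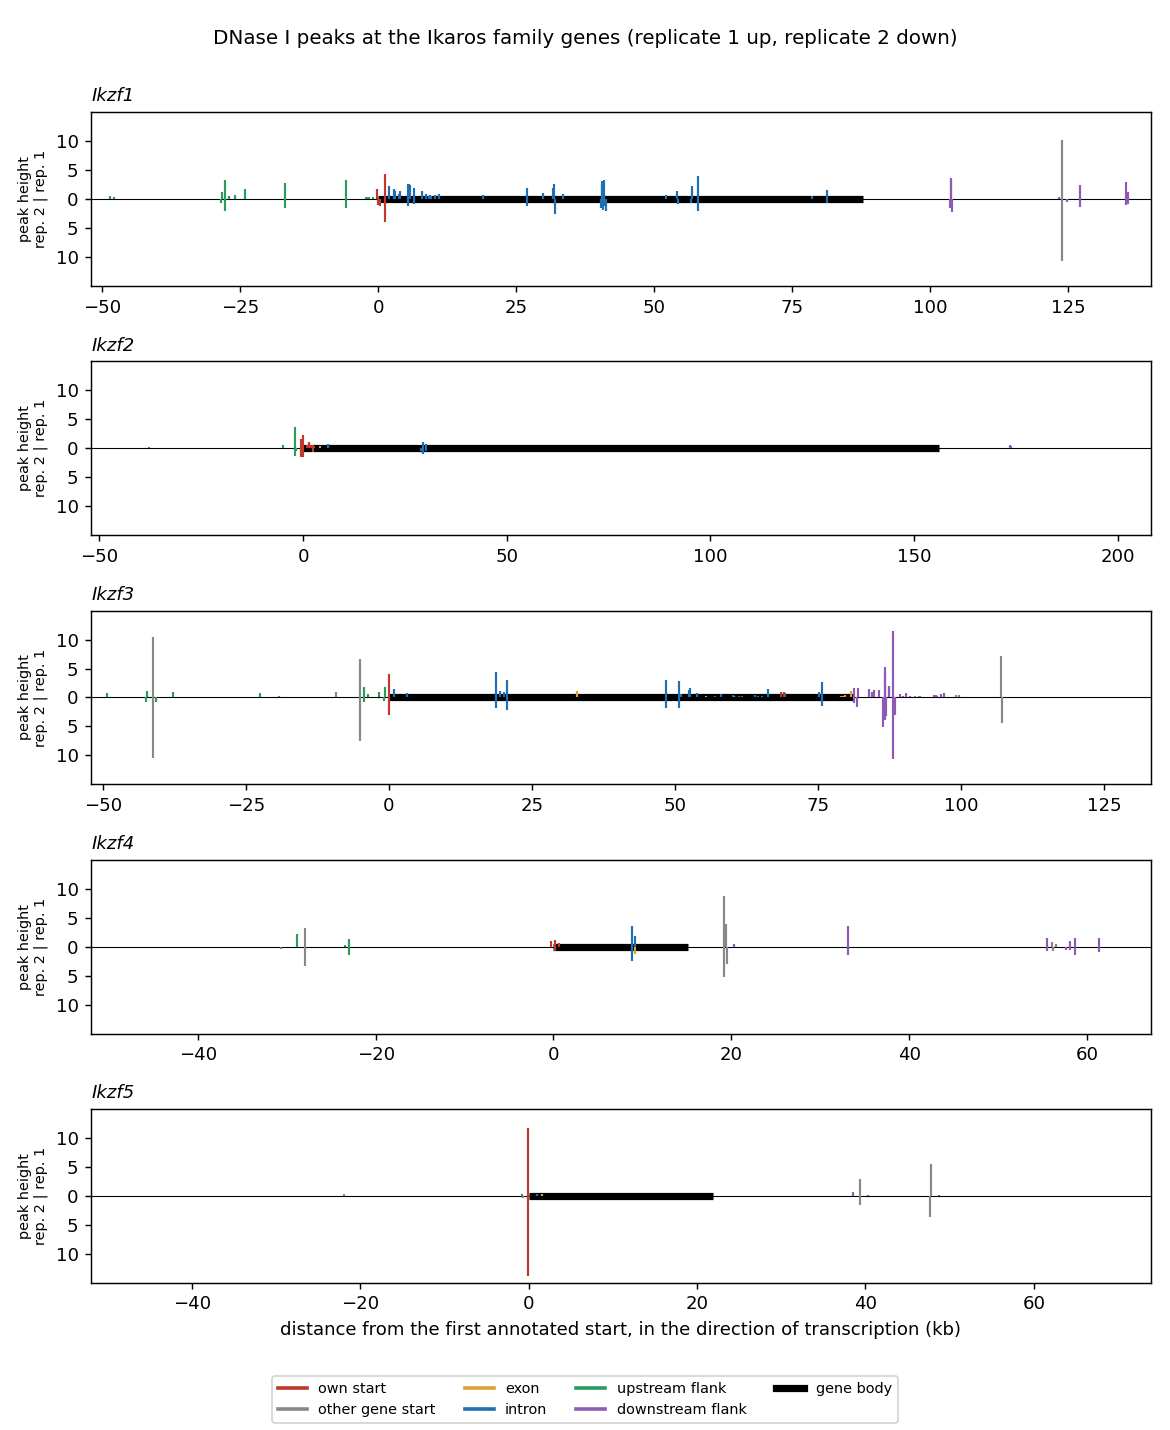
Peaks in the window of each member, placed by distance from the first annotated start in the direction of transcription (kb), with deposited height upward for replicate 1 and downward for replicate 2, coloured by class, and the gene body as a black bar. Ikzf5 has a single high peak at its start (11.7 and 13.8), Ikzf3 has its highest peak downstream of the gene (11.5 and 10.7), and Ikzf2 is bare over most of its body.

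Of the replicate 1 peaks in the windows, 65 of 173 (37.6%) were overlapped by a replicate 2 peak, beside 43.2% of all replicate 1 peaks. At or above the library median the share was 62 of 114 (54.4%), below the 75.8% of all such peaks, and under the median it was 3 of 59 (5.08%) beside 10.5%. In the other direction, 66 of 74 (89.2%) were overlapped, against 83.2% of all replicate 2 peaks. At or above the median this share was 96.3% beside 95.7%, and under it 14 of 20 beside 70.5%. By gene, the overlapped share of replicate 1 peaks was highest for Ikzf4, at 14 of 19 (73.7%), and lowest for Ikzf3, at 17 of 75 (22.7%). It was 24 of 53 (45.3%) for Ikzf1, 6 of 16 (37.5%) for Ikzf2 and 4 of 10 for Ikzf5. In replicate 2, from 6 of 8 peaks (Ikzf2) to 4 of 4 (Ikzf5) were overlapped, and 2 peaks or none per gene were not.

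The surplus of replicate 1 peaks was concentrated in Ikzf3 and Ikzf1. Where each library was limited to its 69798 highest peaks, Ikzf3 still had 47 peaks in replicate 1 against 20 in replicate 2, and Ikzf1 had 44 against 26. The other members had 9 against 8 (Ikzf2), 16 against 16 (Ikzf4) and 4 against 4 (Ikzf5). The difference per 10 kb was at percentile 99.8 of all protein-coding genes for Ikzf3 and 99.2 for Ikzf1 under that limit. In Ikzf3, 19 replicate 1 peaks lay in a row between 2 neighbouring replicate 2 peaks (chr11:98470741-98495020, 24.3 kb), with heights of 0.208 to 1.56 and a median of 0.608, 10 of them under the library median. None of the 19 held a base that the authors' list for replicate 2 gave an FDR under 0.05. In Ikzf1, the longest such row was 8 intronic peaks (chr11:11692661-11704097), with heights of 0.463 to 1.47, and 1 of them held such bases.

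Over the 5 windows, 8 of the 108 replicate 1 peaks that no replicate 2 peak overlapped (7.41%) held bases with a replicate 2 FDR under 0.05, near the 5.64% over all such peaks. The regions seen in replicate 1 alone had a median G and C content of 46.9% against 50.5% in the regions with peaks of both replicates, and over all peaks these were 48.1% and 54.3%. In the Ikzf3 window they were 49.0% and 53.5%. The part of base composition in the surplus was not tested.

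**Figure D3:**
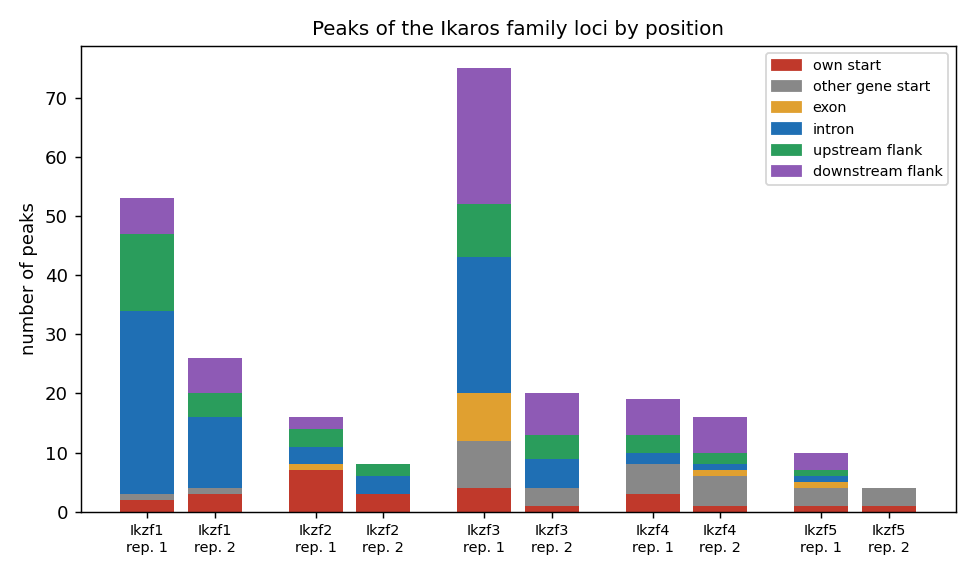
Number of peaks in each member's window by position of the midpoint (own start, start of another protein-coding gene, exon, intron, upstream or downstream flank), for replicate 1 and replicate 2. Ikzf3 falls from 75 to 20 peaks between the replicates and Ikzf4 from 19 to 16.

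By position, the largest class of Ikzf1 peaks was intronic, those of Ikzf3 lay most often in introns and the downstream flank, and those of Ikzf2 near its 5′ end. In Ikzf1, 31 of 53 replicate 1 peaks and 12 of 26 replicate 2 peaks lay in introns, and all 12 of the latter were shared. In Ikzf3, 23 of 75 and 5 of 20 did, while 23 and 7 lay in the downstream flank. In Ikzf2, 10 of 16 and 5 of 8 peaks lay within 5 kb of the first start. In Ikzf5, 8 of 10 and 4 of 4 peaks lay outside the gene body, the promoter peak included. Joined over both replicates, the peaks formed 166 elements, of which 59 had a peak in both replicates, 99 in replicate 1 alone and 8 in replicate 2 alone. Over the whole genome, 55004 of 139912 such regions had a peak in both replicates and 73357 in replicate 1 alone.

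Ikzf1 had 9 shared intronic elements, which lay between 5.44 and 81.3 kb from the first start. The highest by the mean of the replicates, 57.9 kb from the first start (the sequence shown), had heights of 4.07 and 2.03, and all 4 of its replicate 1 footprints were overlapped by replicate 2 footprints. A broad element at 40.9 kb (chr11:11725301-11726480) had 3 peaks in replicate 1, up to 3.32, and 4 in replicate 2, up to 2.02. Another at 31.8 kb (chr11:11716561-11717060) had nearly equal heights of 2.69 and 2.66. In replicate 1 the highest intronic peak was close to the promoter peak of 4.36, and in replicate 2 it was 2.66 against 4.0.

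Upstream of Ikzf1, no other protein-coding gene lay in the window and 4 shared elements were found. They lay 28.4, 27.7, 16.9 and 5.85 kb before the first start. By the mean of the replicates the highest was the one at 27.7 kb (chr11:11657201-11657440), with heights of 3.28 and 2.13, although in replicate 1 the one at 5.85 kb was slightly higher, at 3.36. Downstream, an element inside an exon of the neighbour Fignl1, an ATPase gene, had heights of 3.65 and 2.30 (chr11:11788541-11788980). The start of Fignl1 itself was the highest peak of the window, at 10.2 and 10.6.

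Ikzf2 had the lowest peak density of the family and no protein-coding neighbour in its window. A stretch of 125.8 kb, 80.6% of the gene body, from chr1:69531214 to 69656970, had no peak in either replicate. In the much shorter Ikzf5, the longest such stretch was 20.2 kb, or 92.2% of the gene body. The only shared intronic elements lay 29.6 and 30.1 kb from the first start. The first had heights of 1.09 and 1.04 and the second 0.822 and 0.429. By that mean, the highest shared element of the window lay 1.95 kb upstream of the gene (the sequence shown), with heights of 3.68 in replicate 1 and 1.29 in replicate 2. It was higher than the promoter peak in replicate 1 but not in replicate 2, where the promoter had 1.48.

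In Ikzf3, 5 intronic elements were shared. The one at 18.7 kb from the first start (the sequence shown) had heights of 4.41 and 1.89, above the promoter peak in replicate 1 and below it in replicate 2. Those at 20.7, 48.5, 50.7 and 75.7 kb had heights of 2.64 to 2.97 in replicate 1 and of 1.54 to 2.18 in replicate 2. The element at 20.7 kb (chr11:98525261-98525440) had 3 footprints in each replicate, all overlapping.

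The highest peak of the Ikzf3 window that lay at no GENCODE start was in the downstream flank, 88.2 kb from the first start (chr11:98457741-98458000). Its heights were 11.5 and 10.7, 2.90 and 3.46 times those of the Ikzf3 promoter. All 4 footprints of replicate 1 were overlapped by those of replicate 2. The region was 76.9% G and C and overlapped an exon at chr11:98457931-98458230 that RefSeq predicts for the neighbour Mien1, whose GENCODE start lies farther from Ikzf3. A second element 1.52 kb closer to the gene (chr11:98459021-98459780) had heights of 5.29 and 5.02 and held 10 and 13 footprints. The starts of Ormdl3, a regulator of sphingolipid synthesis (10.4 and 10.4), Zpbp2 (6.71 and 7.44) and Mien1 (7.08 and 4.34) were open in both replicates, whereas the peaks at the starts of Grb7, the gene next to Ikzf3 on its 3′ side, were found in replicate 1 alone, at heights of at most 0.434.

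Ikzf4 had its higher peaks away from its own starts. A pair of adjoining elements lay 8.79 and 9.17 kb from the first start, intronic by the midpoints of their highest peaks. The first had heights of 3.54 and 2.55 (the sequence shown) and the second 1.84 and 1.19. The replicate 2 peak of the second had its midpoint in an exon. Both elements were above the promoter peak of 1.15 and 0.823 in each replicate. The downstream element whose sequence is shown, 33.2 kb from the first start, had heights of 3.61 and 1.38, also above the promoter. Among the neighbours, the starts of the ribosomal protein gene Rps26 (8.67 and 5.20), Suox, the sulfite oxidase gene (3.29 and 3.31), and Erbb3 (0.724 and 0.666) had peaks in both replicates.

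Ikzf5 had no shared intronic or flanking element away from gene starts. Its gene body held 2 low peaks in replicate 1 (heights of 0.261 and 0.255) and none in replicate 2. The other shared peaks of the window lay at the starts of 2310057M21Rik (5.44 and 3.56) and Pstk (2.88 and 1.54) and 0.698 kb upstream of Ikzf5, near a further start of Acadsb (0.243 and 0.394). Its promoter peak and those of its neighbours were therefore all that both replicates showed.

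**Figure D4:**
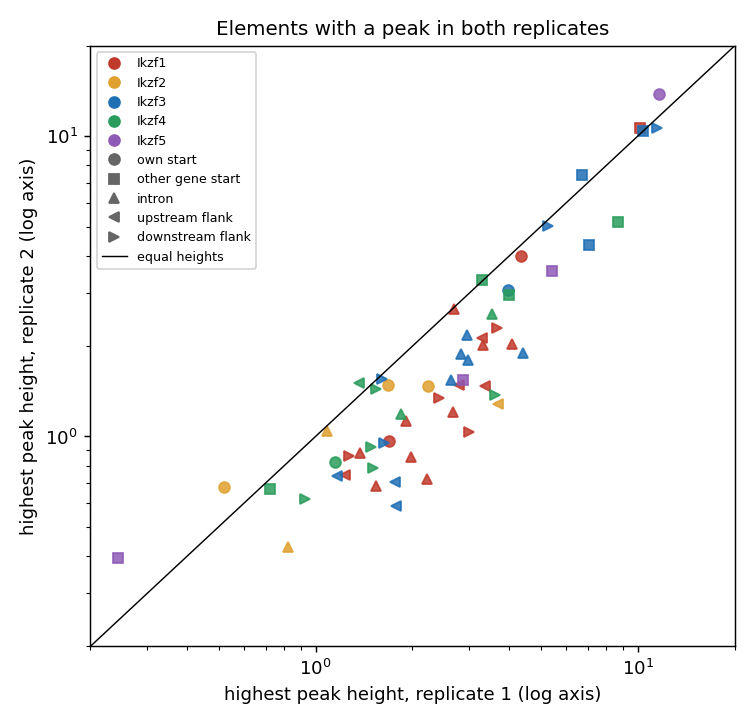
Highest peak height in replicate 1 against replicate 2 (log axes) for the 59 elements with peaks of both replicates, coloured by gene, with the symbol giving the position and the line marking equal heights. Of the 59 points, 52 lie below the line, and the points with heights over 10 lie close to it.

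Heights at shared elements were higher in replicate 1. Of the 59 elements, 52 had the higher height in replicate 1, with a median ratio of 1.56 and a range of 0.617 to 3.05. As multiples of the library median, 58 of the 59 were higher in replicate 1, with a median ratio of 2.06. The lower library median of replicate 1 (0.625 against 0.828) raises this ratio alike at every shared element, in these windows or elsewhere. Over all 55004 such elements of the genome the median ratio of deposited heights was 1.43, beside the 1.56 here. How many of them were higher in replicate 1 was not counted. The Ikzf5 promoter was among the 7 elements whose deposited height was higher in replicate 2, but as a multiple of the median it was higher in replicate 1 (18.6 against 16.7).

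Footprints were most numerous at Ikzf3 and Ikzf1. Ikzf3 had 242 footprints in replicate 1 and 78 in replicate 2, and Ikzf1 had 187 and 72. The other members had fewer in both, with 73 and 52 at Ikzf4, 51 and 22 at Ikzf2 and 42 and 31 at Ikzf5. Of the 595 and 255 footprints in all, 480 (80.7%) and 203 (79.6%) lay in peaks, beside 82.8% and 84.2% of all footprints. Of the replicate 1 footprints, 148 (24.9%) were overlapped by one of replicate 2, against 33.5% of all replicate 1 footprints. Of the replicate 2 footprints, 150 (58.8%) were overlapped by one of replicate 1, against 61.8% of all. The overlapped share of replicate 1 footprints was lowest for Ikzf2, at 6 of 51 (11.8%), and highest for Ikzf5, at 16 of 42 (38.1%).

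By class, Ikzf2 had 28 of its 47 footprints in replicate 1 peaks at its own starts, whereas Ikzf1 had 97 of 152 in intronic peaks. In Ikzf5 the promoter and the neighbouring starts held 22 of 27 in replicate 1 and 22 of 22 in replicate 2. Of the 59 shared elements, 56 had a footprint in both replicates and 46 had footprints that overlapped between them. These counts were not made over all shared regions of the genome. Per kb of peak, the density was 9.49 to 12.9 in replicate 1 and 12.4 to 20.1 in replicate 2 over the members, beside 10.5 and 12.5 over all peaks. Only the Ikzf5 window in replicate 2, with 22 footprints in 4 peaks, was far from the latter.

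**Figure D5:**
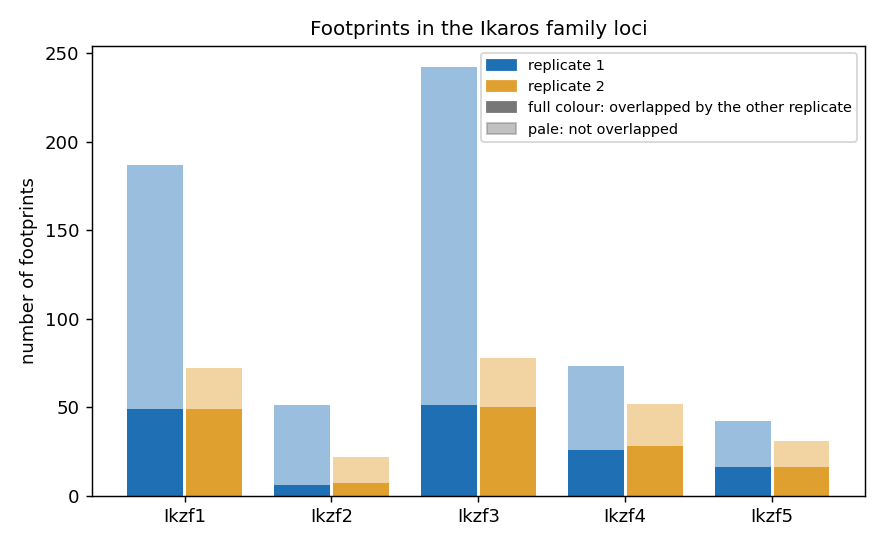
Footprints in each member's window in replicate 1 and replicate 2, with the part overlapped by a footprint of the other replicate in full colour and the rest pale. Ikzf3 has 242 and 78 footprints, of which 51 and 50 overlap, and Ikzf5 has 42 and 31, of which 16 and 16 overlap.

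Consensus sequences of factors active in thymocytes were counted in the 166 elements, on both strands, beside the 139912 joined regions of the whole genome. The Ikaros sequence TGGGAA, which Ikaros itself binds, occurred in 40 elements (24.1%) against 18.4% of all regions. For TCF factors (CTTTGA) the shares were 22.3% and 15.7%, for ETS factors (AGGAAG) 36.7% and 34.6%, and for RUNX factors (TGTGGT) 19.9% and 20.2%. For the GATA factors, searched as AGATAA, they were 10.8% and 8.67%, and for E proteins (CAGCTG) 20.5% and 17.4%. The insulator protein CTCF, searched as AGGGGGC, had 7.83% and 9.48%, and SP/KLF factors, searched as GGGGCGG, had 8.43% and 9.65%. The elements were wider than the regions of the genome, with medians of 255.5 and 200 bp. In windows of 200 bp centred on each, the Ikaros share was 18.7% against 16.7%, and that of TCF 15.7% against 14.4%. In these windows CTCF had 3.01% against 8.33%, SP/KLF 5.42% against 7.84%, ETS 32.5% against 32.6%, RUNX 17.5% against 18.8%, GATA 8.43% against 7.99% and E proteins 15.7% against 15.5%. The CTCF and SP/KLF sequences share the letters GGGGC and can overlap.

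Over the 59 shared elements, the Ikaros sequence occurred in 30.5% against 22.2% of all shared regions, but in 15.3% against 15.9% of the centred windows. The TCF sequence occurred in 30.5% against 17.1% of the shared elements and in 20.3% (12 of 59) against 12.4% of the centred windows. GATA had 15.3% against 8.34% of the shared elements and 11.9% (7 of 59) against 5.75% of the centred windows. CTCF had 13.6% against 15.6%, and 6.78% (4 of 59) against 12.4% of the centred windows. In those windows ETS had 35.6% against 32.6%, RUNX 22.0% against 17.3%, E proteins 20.3% against 17.9% and SP/KLF 15.3% against 14.7%. By gene, the Ikaros sequence occurred in 14 of 45 elements of Ikzf1, 4 of 18 of Ikzf2, 14 of 73 of Ikzf3, 6 of 20 of Ikzf4 and 2 of 10 of Ikzf5. Footprints were searched after widening by 5 bp on each side. The Ikaros sequence lay in 13 of 595 (2.18%) in replicate 1 and 7 of 255 (2.75%) in replicate 2, against 1.77% and 1.66% of all footprints. In the same order, TCF had 2.02% and 2.75% against 1.51% and 1.10%, and RUNX 1.85% and 2.75% against 2.05% and 1.72%. ETS had 2.18% and 0.392% against 3.17% and 2.47%, and SP/KLF 2.52% and 6.67% against 3.11% and 4.92%. CTCF had 0.840% and 2.75% against 2.27% and 2.88%, E proteins 1.01% and 1.18% against 1.58% and 1.85%, and GATA 0.504% and 0% against 0.503% and 0.279%. A match is a description of the letters and not a bound site.

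Of 36 partners and known targets of the family, 35 had a promoter peak in both replicates, against 57.2% of all protein-coding genes. Cd4, Cd8a, Rag1 and Ptcra were counted both as targets and as thymocyte markers in the check of the tissue label. All 13 NuRD subunits had one, with a median of 12.5 times the library median, from Mbd3 (12.5 and 21.3 in height) down to Mta1 (0.782 and 0.95). The 5 other corepressors all had one, from Sin3a (15.4 and 18.0) down to Ctbp2 (0.417 and 0.400). So did the 5 genes of the cereblon ubiquitin ligase, which degrades Ikaros and Aiolos when bound by thalidomide analogues, from Ddb1 (12.7 and 14.2) down to Cul4b (2.33 and 2.89).

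Of the 13 known targets of Ikaros, 12 had a promoter peak in both replicates. The highest was Cd8a, which encodes a coreceptor of thymocytes (6.08 and 8.04), and the lowest Il7r, the interleukin-7 receptor gene (1.3 and 0.545). Igll1, a surrogate light chain gene of early B cells, had a peak of 0.458 in replicate 2 and none in replicate 1. Vpreb1, another surrogate light chain gene among the targets, had promoter peaks of 4.35 and 5.25. The median of the targets was 3.65 times the library median, beside 5.04 for the 5 family members and 6.45 for all genes with a promoter peak in both replicates. The medians of the NuRD subunits and the cereblon ligase genes (12.4) lay above the latter value and those of the targets and the family below it, with single genes of these lists on either side.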

How the data were processed

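DNase-seq libraries from 2 thymus samples were analysed. Peaks, footprints and per-base false discovery rates (FDR) were made library by library on mm10, from its own alignments and further inputs, per the deposited README. The aligner, callers and versions are not given in the sources used here. Peak height is the authors' deposited signal, with no stated normalization. The authors' FDR, read here as a q-value, lay under 0.05 throughout, and the footprint list carried the constant 0.01. Of each sample's peak files the one with more rows was used. Chromosome lengths were compared with GRCm38.p6. Overlaps were counted from 1 bp in Python 3 scripts and bedtools, after a test on simulated peaks. Coordinates are 1-based. Whether footprints were corrected for the sequence preference of DNase I is not given.

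The members and gene lists were chosen with earlier results of these data known. Named were the 5 members, of each list the highest and lowest gene and those without a promoter peak in both replicates, each member's own-start peaks and its 5 highest shared elements, and neighbours with a peak on their start. Further elements (such as the second intronic elements, the bare and unmatched stretches and the RefSeq starts) and the gene Vpreb1 were picked after their values were seen. With 1 group of 2 replicates no test was run, and no p-value is given. The alternatives changed the peak file, flank, overlap, start window, transcript set, height scale, peak number and replicate.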

Additional observations from a re-analysis of the deposited data

How the results depend on the processing

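The family had a mean of 123.5 peaks per replicate, which was 74 and 173 when either replicate was left out and 55.5 in the gene bodies alone. The smaller peak file, a 25 kb flank, joined peaks and equal peak numbers gave 97 to 115.5. The 25 kb flank took the mean of Ikzf4 from 17.5 to 9. The mean number of footprints, 425, was 255 and 595 when either replicate was left out. Start clusters with a peak in both replicates numbered 8, and 5 when only basic transcripts were used, since 8 clusters and not 13 then remained. The median promoter height over the members was 5.04 times the library median and 0.943 times the library's 90th percentile, a change of scale that left the order of the members as it was. Left out in turn, the replicates gave 3.72 and 6.35. The share of member peaks overlapped in the other replicate averaged 63.4% and was 45.0% with a reciprocal overlap of 50%, a fall from 37.6% to 27.7% of the replicate 1 peaks and from 89.2% to 62.2% of the replicate 2 peaks. The windows of 200 bp were added after the data had been seen. No paired analysis was possible because there is 1 group of samples. Depth is unknown, so whether a peak seen in replicate 1 alone was within reach of replicate 2 cannot be told.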
